A study of Sus scrofa with 20 samples.

Results

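The genes described here are a set of growth regulators of the fetal and newborn liver, namely the insulin-like growth factor (IGF) axis and genes called oncofetal because liver tumours switch them on again. The set holds IGF1, IGF2, IGFBP1, IGFBP2, IGFBP3, IGF2BP1, IGF2BP3, GPC3, DLK1 and LIN28B, and a member was taken to be a gene whose row carries exactly that name. Of the 10 names, 8 have a row among the 25764 genes of the table, and all 8 passed the filter on low values. IGF2 and IGF2BP1 have no row by those names and were not analysed here.

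RNA was sequenced from 20 preparations of pig (Sus scrofa) cells by poly(A) selection and stranded libraries. Porcine biliary tree stem cells (pBTSCs), which the study prepared from newborn piglets and whose tissue the labels give as gallbladder, made up 5 libraries. The other 15 came from pig liver sorted on surface antigens, of which 5 were sorted as CD45+, 4 as CD45-/EpCAM+ and 2 each as CD45-/EpCAM-, CD31+ and CD146+. Each library is named by the number in its title. The pBTSC libraries S2, S7 and S11 came from piglets of an H2B-GFP line, in which histone H2B fused to a green fluorescent protein was inserted at the ACTB locus, and S15 and S20 from wild-type piglets of a cross of several breeds. These lines are given by the study and not by the labels, so they were not tested as groups. The study also gives RNA integrity scores for the pBTSC libraries, lowest in S7 and S11, highest in S20 and missing for S15. No such score is given for a liver library, and the part of RNA quality in the values was not tested. The labels give no genotype, age or donor for the liver libraries, and no treatment for any library. The study describes keeping immunoselected stem/progenitor cells for some hours in a serum-free medium that contains insulin, where they formed organoids. It does not say which of these 20 libraries passed through that step. Liver libraries carry the numbers 3 to 14 (8 libraries) or 16 to 23 (7 libraries), and the pBTSC libraries of the 2 lines fall on the same sides of that boundary, so that line and title number cannot be told apart in pBTSCs.

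As background, IGF1 and IGF2 are peptide hormones that act through the receptor IGF1R, and most IGF in plasma is held by binding proteins (IGFBPs) secreted largely by the liver. After birth growth hormone takes over the control of hepatic IGF1 and of the acid-labile subunit IGFALS, which joins IGF and IGFBP3 in a long-lived complex. LIN28B blocks maturation of let-7 microRNAs, IGF2BP3 binds and stabilizes mRNAs including that of IGF2, GPC3 is a cell-surface proteoglycan, and DLK1 is an imprinted membrane protein of hepatoblasts. LIN28B, IGF2BP3, GPC3, DLK1 and IGFBP2 are known to be high in fetal liver and to decline as it matures, and IGF1 and IGFALS to rise after birth.

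The values are normalized counts. The value of 1 read was estimated in each library from the spacing of its lowest values, which put 17 libraries between 21300000 and 77800000 reads and 3 shallow ones, S13, S15 and S22, between 455000 and 1570000. An amount of 3 reads was taken as the floor, which covers counting error only and was worth 0.68 to 4.27 normalized counts in the 17 deep libraries and 37.7 to 156 in the 3 shallow ones. The CD45+ and CD45-/EpCAM+ liver sorts could not be separated by their markers. The CD45-/EpCAM- sort stood apart from the other liver sorts in 3 erythroid genes, summed to 186627 or more against 42191 or less. It also had the lowest sums of 4 biliary genes (2662 or less against 3362 or more). Its sums of 6 stellate cell and fibroblast genes were the lowest too (36926 or less against 41908 or more). The summed level of 5 leukocyte genes ran from 14911 to 63029 in CD45+ libraries and from 16216 to 72527 in CD45-/EpCAM+ libraries, and 6 hepatocyte genes summed to at least 762297 in every liver library, CD45+ libraries included. Libraries with neighbouring title numbers were closer than libraries of the same sort. Among deep liver libraries, pairs within 1 run of consecutive numbers had a median Pearson correlation of 0.994 across genes (12 pairs), and pairs of the same sort from different runs had 0.953 (15 pairs). Genes are not independent replicates, so these correlations only describe the libraries. Liver libraries are therefore described by title number as well as by sort. The labels do not say which libraries are separate animals, so that p-values measure the spread between these libraries, which may be technical.

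**Figure D1:**
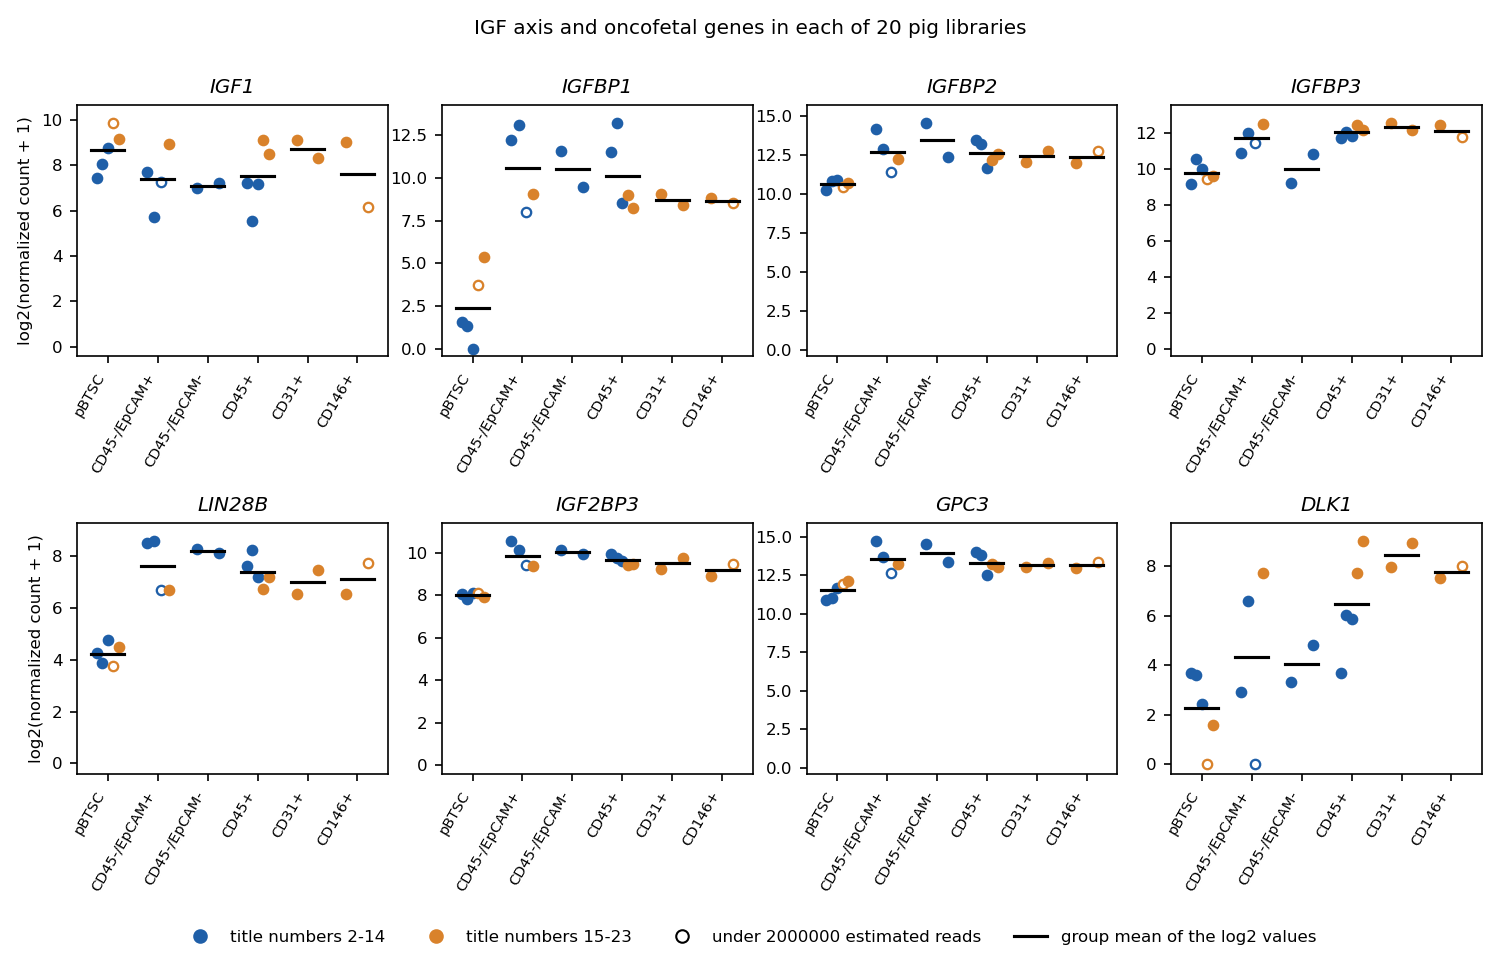
Level of the 8 members in each library, as log2(normalized count + 1), by sorted group. Points are libraries coloured by title number, open points are the 3 libraries under 2000000 estimated reads, and bars are group means of the log2 values. For IGFBP1, IGFBP2, IGF2BP3, GPC3 and LIN28B the 5 pBTSC libraries lie below all 15 liver libraries. The share of all genes tested that separate in this way was not computed.

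In pBTSCs the members were lower than in liver cells, with 1 exception. IGFBP1, IGFBP2, IGF2BP3, GPC3 and LIN28B were lower in pBTSCs than in each of 4 sets of liver libraries, IGFBP3 than in 3 of them and DLK1 than in 2. IGF1 passed the test in none. Each of 15576 genes was tested with limma on the log2(normalized count + 1) scale. A gene passed with an adjusted p under 0.05 if its log2 fold change was also above 1 or below -1. Against CD45-/EpCAM+ liver cells 6 of the 8 members were lower and 0 higher, where 10.3% of all genes tested were lower and 14.8% higher, and the median log2 fold change was -2.03 over the members and 0.08 over all genes. Against CD45-/EpCAM- liver cells 5 were lower and 0 higher (16.6% and 20% of all genes), with medians of -2.22 and 0.04. Against CD45+ liver cells 7 were lower and 0 higher (9.54% and 11% of all genes), with medians of -2.14 and 0.07. Against the CD31+ and CD146+ sorts combined 7 were lower and 0 higher (8.75% and 12.6% of all genes), with medians of -2.12 and 0.14. These sorts are called endothelial here as a short name only, and the study lists CD146 among antigens of stellate cell precursors. Their libraries were not set apart by 5 endothelial genes. Those summed to 83872 to 104175 there and to 95115 to 103565 in the CD45+ libraries numbered 16 to 23. The 4 comparisons share the pBTSC libraries and are not independent of each other. In these bulk libraries fewer cells of a type and less RNA per cell cannot be told apart.

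**Figure D2:**
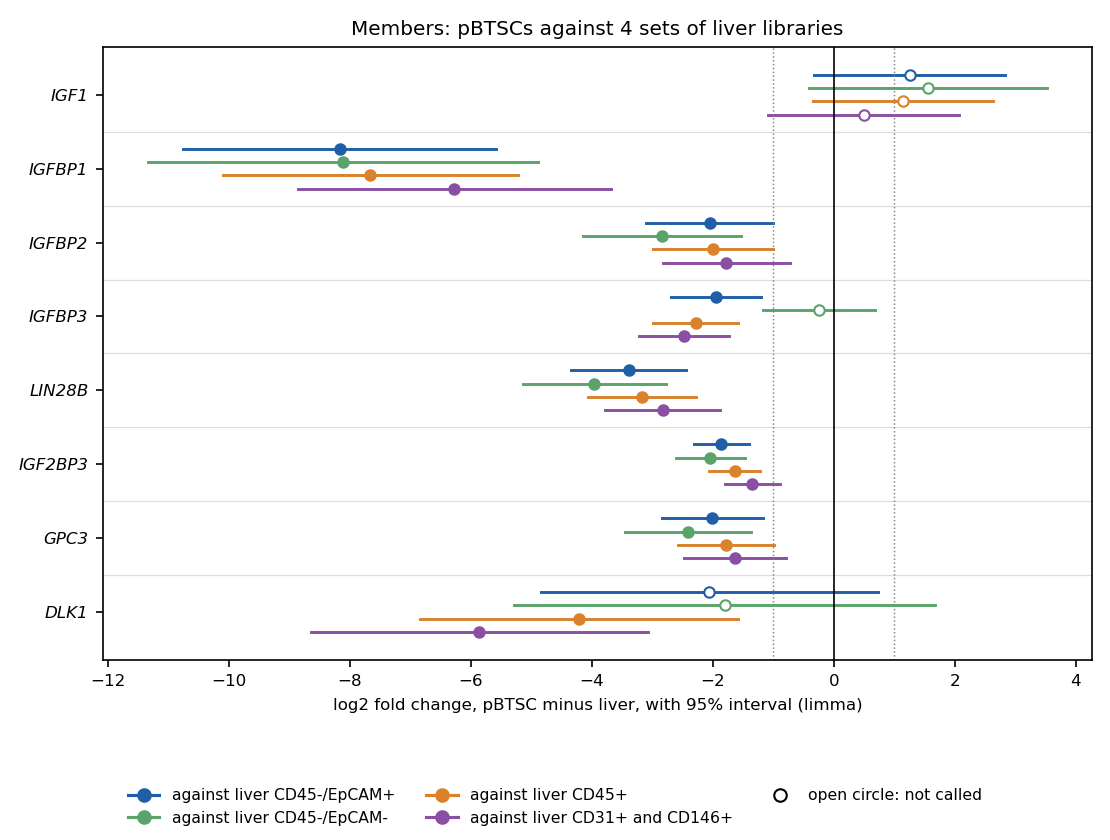
Log2 fold change of each member, pBTSC minus liver, in the 4 comparisons, with 95% intervals from limma. Filled circles passed the test and dotted lines mark an absolute value of 1. IGFBP1 had the lowest estimates of the 8 members, from -8.17 to -6.27, and the 4 intervals of IGF1 include 0.

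IGF1 encodes the circulating growth factor that the liver makes under growth hormone. In the pBTSC libraries S2, S7, S11, S15 and S20 it stood at 169, 261, 436, 920 and 575 normalized counts, a mean of 472 ± 295 (SD, n = 5). The CD45-/EpCAM+ liver libraries S4, S9, S13 and S19 held 204, 51.0, 151 and 491, and the CD45-/EpCAM- libraries S5 and S14 held 125 and 146. The H2B-GFP libraries overlapped the liver libraries, and the pair of wild-type libraries lay above every one of the 15 liver libraries. CD45+ libraries S3, S8, S12, S18 and S23 were at 148, 45.9, 143, 541 and 360, CD31+ libraries S16 and S21 at 541 and 321, and CD146+ libraries S17 and S22 at 516 and 71.3. The last of these is 1.37 estimated reads, below the floor of 156 in that library. The log2 fold change of pBTSCs was 1.26 ± 0.75 (SE) against CD45-/EpCAM+ cells (limma, adjusted p = 0.197), 1.56 ± 0.93 against CD45-/EpCAM- cells (adjusted p = 0.175), 1.14 ± 0.71 against CD45+ cells (adjusted p = 0.232) and 0.50 ± 0.75 against the endothelial sorts (adjusted p = 0.656). The last value was -0.21 without S22. With the run of title numbers as a term, IGF1 was higher in pBTSCs against CD45-/EpCAM+ cells (1.14, adjusted p = 0.0318), CD45+ cells (1.14, adjusted p = 0.0240) and the endothelial sorts (1.53, adjusted p = 0.0167), a fit chosen after seeing the data.

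IGFBP1 encodes the binding protein that hepatocytes secrete in fasting, repressed by insulin. It was nearly absent from pBTSCs. S2, S7 and S11 held 2.04, 1.55 and 0 normalized counts, S15 12.6, which is 1 estimated read and below its floor of 37.7, and S20 41.3. In liver it was at 4674, 8670, 257 and 538 in the CD45-/EpCAM+ libraries S4, S9, S13 and S19 and at 3059 and 717 in the CD45-/EpCAM- libraries S5 and S14. The CD45+ libraries S3, S8, S12, S18 and S23 were at 2847, 9286, 372, 507 and 301, and the endothelial libraries S16, S21, S17 and S22 at 531, 338, 445 and 365. Every liver library lay above every pBTSC library, the lowest at 257 and the highest pBTSC value at 41.3. The liver mean was 191 times the pBTSC mean, and 542 times without S20. The log2 fold change was -8.17 ± 1.23 against CD45-/EpCAM+ cells (limma, adjusted p = 5.5e-05), -8.11 ± 1.53 against CD45-/EpCAM- cells (adjusted p = 3.8e-04), -7.66 ± 1.16 against CD45+ cells (adjusted p = 6.7e-05) and -6.27 ± 1.23 against the endothelial sorts (adjusted p = 8.2e-04). Among the pBTSC libraries the summed level of the 6 hepatocyte genes was 3084 to 5961 in S2, S7 and S11 and 29733 to 40546 in S15 and S20, and its part in the IGFBP1 values was not tested. The study's medium for stem/progenitor cells contains insulin, and the part of the medium was not tested either. Within title numbers 2 to 14 the fold change against CD45-/EpCAM+ cells was -10.1, and within 15 to 23, where S19 is the only CD45-/EpCAM+ library, it was -4.49.

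IGFBP2 and IGFBP3 encode 2 further secreted IGF carriers, the first typical of fetal plasma and the second the main carrier after birth. IGFBP2 was tightly grouped in pBTSCs, at 1209, 1847, 1891, 1357 and 1664 in S2, S7, S11, S15 and S20, or 1593 ± 301 (SD, n = 5). CD45-/EpCAM+ libraries S4, S9, S13 and S19 held 18387, 7357, 2751 and 4800, and CD45-/EpCAM- libraries S5 and S14 held 23502 and 5365. No liver library reached down to the pBTSC range. CD45+ libraries S3, S8, S12, S18 and S23 were at 11307, 9297, 3283, 4603 and 6076, and the endothelial libraries S16, S21, S17 and S22 at 4255, 6948, 4078 and 6886. IGFBP2 was lower in pBTSCs by a log2 fold change of -2.05 ± 0.50 against CD45-/EpCAM+ cells (limma, adjusted p = 0.00352), -2.84 ± 0.62 against CD45-/EpCAM- cells (adjusted p = 0.00127), -2.0 ± 0.47 against CD45+ cells (adjusted p = 0.00324) and -1.77 ± 0.50 against the endothelial sorts (adjusted p = 0.0119). The call against CD45-/EpCAM- cells rested on S5, without which it was -1.77 (adjusted p = 0.0859). The call against the endothelial sorts was lost without S21 (-1.60, adjusted p = 0.0594) and without S22 (-1.58, adjusted p = 0.0605).

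IGFBP3 differed from the others in the CD45-/EpCAM- sort. The pBTSC libraries S2, S7, S11, S15 and S20 were at 567, 1481, 1024, 691 and 763 normalized counts, or 905 ± 363 (SD, n = 5). CD45-/EpCAM- libraries S5 and S14, at 579 and 1762, overlapped them. The libraries of the other sorts lay above every pBTSC library, with CD45-/EpCAM+ libraries S4, S9, S13 and S19 at 1841, 4060, 2725 and 5716. CD45+ libraries S3, S8, S12, S18 and S23 held 3329, 4147, 3600, 5411 and 4597, and S16, S21, S17 and S22 held 5868, 4549, 5465 and 3441. The log2 fold change was -1.94 ± 0.35 against CD45-/EpCAM+ cells (limma, adjusted p = 3.3e-04), -2.28 ± 0.33 against CD45+ cells (adjusted p = 4.5e-05) and -2.47 ± 0.35 against the endothelial sorts (adjusted p = 3.9e-05). Against CD45-/EpCAM- cells it was -0.24 ± 0.44 (adjusted p = 0.671) with a 95% interval from -1.17 to 0.68, and it changed sign, to 0.24, when libraries were rescaled to the same total, and to 0.56 without S14.

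LIN28B and IGF2BP3 encode RNA-binding proteins of the fetal programme. LIN28B was low in all 5 pBTSC libraries, at 17.9, 13.7, 26.1, 12.6 and 21.6 normalized counts in S2, S7, S11, S15 and S20, of which the value of S15 is 1 estimated read. CD45-/EpCAM+ libraries S4, S9, S13 and S19 were at 364, 381, 103 and 101, and CD45-/EpCAM- libraries S5 and S14 at 305 and 275. Even the lowest liver library, S16 at 90.8, was above the highest pBTSC library. CD45+ libraries S3, S8, S12, S18 and S23 held 195, 300, 145, 106 and 146, and S21, S17 and S22 held 174, 92.1 and 209. The mean of the 15 liver libraries was 10.8 times that of pBTSCs. LIN28B was lower in pBTSCs by a log2 fold change of -3.39 ± 0.45 against CD45-/EpCAM+ cells (limma, adjusted p = 1.6e-05), -3.96 ± 0.56 against CD45-/EpCAM- cells (adjusted p = 2.7e-05), -3.17 ± 0.42 against CD45+ cells (adjusted p = 1.8e-05) and -2.83 ± 0.45 against the endothelial sorts (adjusted p = 1.1e-04). Within title numbers 15 to 23, where 1 CD45-/EpCAM+ library remains, the first of these was -2.55 (adjusted p = 0.0891). LIN28A, the paralog of LIN28B, was listed at 0 in all 20 libraries.

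IGF2BP3 varied least among the members in pBTSCs, relative to its mean. S2, S7, S11, S15 and S20 held 265, 224, 272, 272 and 238 normalized counts, or 254 ± 22 (SD, n = 5), with the shallow library S15 inside the range of the deep ones. CD45-/EpCAM+ libraries S4, S9, S13 and S19 were at 1487, 1093, 677 and 654, and CD45-/EpCAM- libraries S5 and S14 at 1110 and 981. CD45+ libraries S3, S8, S12, S18 and S23 were at 964, 860, 771, 692 and 703. The endothelial libraries S16, S21, S17 and S22, at 605, 849, 482 and 704, came nearest to pBTSCs without reaching them. The log2 fold change was -1.86 ± 0.21 against CD45-/EpCAM+ cells (limma, adjusted p = 3.6e-06), -2.04 ± 0.27 against CD45-/EpCAM- cells (adjusted p = 1.3e-05), -1.64 ± 0.20 against CD45+ cells (adjusted p = 7.5e-06) and -1.35 ± 0.21 against the endothelial sorts (adjusted p = 1.2e-04).

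GPC3, a proteoglycan used as a marker of hepatoblasts and of liver cancer, was present in pBTSCs at a lower level than in any liver library. Its pBTSC values were 1905, 2111 and 3255 in the H2B-GFP libraries S2, S7 and S11 and 3922 and 4542 in the wild-type libraries S15 and S20. The CD45-/EpCAM+ libraries S4, S9, S13 and S19 held 26768, 13028, 6264 and 9391, and the CD45-/EpCAM- libraries S5 and S14 held 23494 and 10566. The gap to liver was narrow at its edge, since the lowest liver library, the CD45+ library S12, was at 5859. The other CD45+ libraries S3, S8, S18 and S23 were at 16324, 14501, 9475 and 8548, and S16, S21, S17 and S22 at 8561, 9969, 8068 and 10425. The liver mean was 3.84 times the pBTSC mean. The log2 fold change was -2.01 ± 0.40 against CD45-/EpCAM+ cells (limma, adjusted p = 7.2e-04), -2.40 ± 0.50 against CD45-/EpCAM- cells (adjusted p = 0.000805), -1.78 ± 0.37 against CD45+ cells (adjusted p = 0.00139) and -1.63 ± 0.40 against the endothelial sorts (adjusted p = 0.00475).

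DLK1, the imprinted hepatoblast antigen, was at or below 11.8 normalized counts in every pBTSC library, with 11.8, 11.2, 4.38, 0 and 1.99 in S2, S7, S11, S15 and S20. The 0 of S15 lies under a floor of 37.7. CD45-/EpCAM+ libraries S4, S9, S13 and S19 were at 6.63, 96.4, 0 and 209, where the 0 of S13 lies under a floor of 77.1, and CD45-/EpCAM- libraries S5 and S14 were at 8.93 and 27.0. These 6 libraries overlapped pBTSCs. CD45+ libraries S3, S8, S12, S18 and S23 held 11.9, 64.5, 57.9, 209 and 523, and S16, S21, S17 and S22 held 249, 492, 184 and 257. The CD45+ libraries lay above every pBTSC library, the lowest of them, S3 at 11.9, barely above S2. DLK1 was lower in pBTSCs than in CD45+ cells by a log2 fold change of -4.21 ± 1.25 (limma, adjusted p = 0.0149) and than in the endothelial sorts by -5.85 ± 1.32 (adjusted p = 0.00271). Against CD45-/EpCAM+ cells it was -2.05 ± 1.32 (adjusted p = 0.235) and against CD45-/EpCAM- cells -1.80 ± 1.65 (adjusted p = 0.381). These values depended on the title numbers. Within 2 to 14 the difference from CD45-/EpCAM+ cells was 0.06 and that from CD45+ cells -1.96 (limma, adjusted p = 0.327). Within 15 to 23 they were -6.93, where S19 is the only CD45-/EpCAM+ library, and -7.58 (adjusted p = 9.3e-04). The pBTSC libraries there are S15, at 0 under its floor, and S20. Without S13 the difference from CD45-/EpCAM+ cells was -3.49 (adjusted p = 0.0284).

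Among the 6 sorted groups ordered by mean, pBTSCs stood last for 7 members and first for IGF1, positions that pBTSCs held for 24.8% and 35.3% of all genes tested. The first place of IGF1 rested on the shallow library S15. Without the shallow libraries the IGF1 mean of pBTSCs was 360, below the CD31+ sort and the remaining CD146+ library (516), and pBTSCs stood last for the same 7 members. For IGFBP2, IGF2BP3, GPC3 and LIN28B the only neighbours in that order whose libraries did not overlap were pBTSCs and the liver sort just above them. For IGFBP1 the CD45-/EpCAM- and CD31+ sorts also did not overlap, at 717 or more and 531 or less. IGFBP3 was instead split above the CD45-/EpCAM- sort, and for IGF1 and DLK1 every pair of neighbours overlapped. How many of all genes have neighbours that do not overlap was not computed.

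Markers of other cell types differed between pBTSC and liver libraries beside these genes. All 6 hepatocyte genes were lower in pBTSCs in the 4 comparisons, and their summed level was 3084 to 40546 in pBTSCs and 762297 to 2351830 in liver libraries. The 6 stellate cell and fibroblast genes summed to 311710 to 1385070 in pBTSCs and to 25166 to 147548 in liver, with 5, 6, 4 and 4 of them higher in pBTSCs against CD45-/EpCAM+, CD45-/EpCAM-, CD45+ and endothelial liver cells. The 3 smooth muscle genes summed to 51313 to 107402 in pBTSCs and to 6805 to 61575 in liver. The 4 biliary epithelial genes with a row overlapped, at 2402 to 5855 in pBTSCs and 1528 to 6500 in liver. The 5 leukocyte genes summed to 3438 to 8259 in pBTSCs and to 14911 or more in liver. In each comparison 3 of them were lower in pBTSCs. PTPRC overlapped, at 534 to 2140 and 424 to 3027. CD3E was higher in pBTSCs against CD45+ and endothelial cells, calls lost under 3 of 15 and 1 of 14 other settings. The 5 endothelial genes overlapped as a sum, at 68707 to 90326 and 18777 to 117995, but differed by gene. VWF was at 13150 to 30693 in pBTSCs and 2131 to 6954 in liver, and STAB2 at 40.6 to 987 and 5300 to 60522. Of the 5, 2, 3, 1 and 1 were higher in pBTSCs in the 4 comparisons, and 1 was lower in each. A pair of proliferation genes summed to 2705 to 6100 in pBTSCs and 1652 to 14554 in liver, where the ranges overlap. The 3 erythroid genes summed to 29215 to 128336 in pBTSCs, 2386 to 42191 in CD45-/EpCAM+, 186627 to 859951 in CD45-/EpCAM-, 1480 to 15446 in CD45+ and 1432 to 2550 in endothelial libraries. Of these genes 2, 2 and 3 were higher in pBTSCs against CD45-/EpCAM+, CD45+ and endothelial cells, and 2 were lower against CD45-/EpCAM- cells. No gene of these lists was at 0 in all libraries of either group, and the part of these cells in the members' values was not tested.

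The rest of the IGF axis was read from lists of its receptors, carriers, proteases and growth hormone signalling. IGF-binding proteins divided by gene. IGFBP5, IGFBP6 and IGFBP7, known from mesenchymal and vascular cells, were higher in pBTSCs in all 4 comparisons, whereas IGFALS was lower in all 4 and IGFBP4 passed the test in none. IGFBP6 was 464, 656, 859, 1320 and 704 in S2, S7, S11, S15 and S20 and between 25.7 and 82.3, with a median of 52.1, in the 15 liver libraries. Its log2 fold change was 4.27 ± 0.39 against CD45-/EpCAM+ cells (limma, adjusted p = 3.1e-07) and 3.80 to 3.90 against the other sets. IGFBP5 rose by 3.10 ± 0.37 against CD45-/EpCAM+ cells (adjusted p = 5.7e-06) and IGFBP7 by 1.71 ± 0.25 (adjusted p = 3.6e-05). IGFALS was at 78.0, 79.3, 76.4, 50.3 and 94.9 in pBTSCs and between 154 and 1606 in liver, a log2 fold change of -2.21 ± 0.55 against CD45-/EpCAM+ cells (adjusted p = 0.00418) and -4.02 ± 0.55 against the endothelial sorts (adjusted p = 2.5e-05). Within title numbers 15 to 23 the rise of IGFBP5 against CD45-/EpCAM+ cells and that of IGFBP7 against CD45-/EpCAM+, CD45+ and endothelial cells no longer passed, and IGFBP7 against the endothelial sorts (1.01 ± 0.25) also failed without S7, S11, S21 or S22. The IGFALS call against CD45-/EpCAM- cells was lost without S5.

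**Figure D3:**
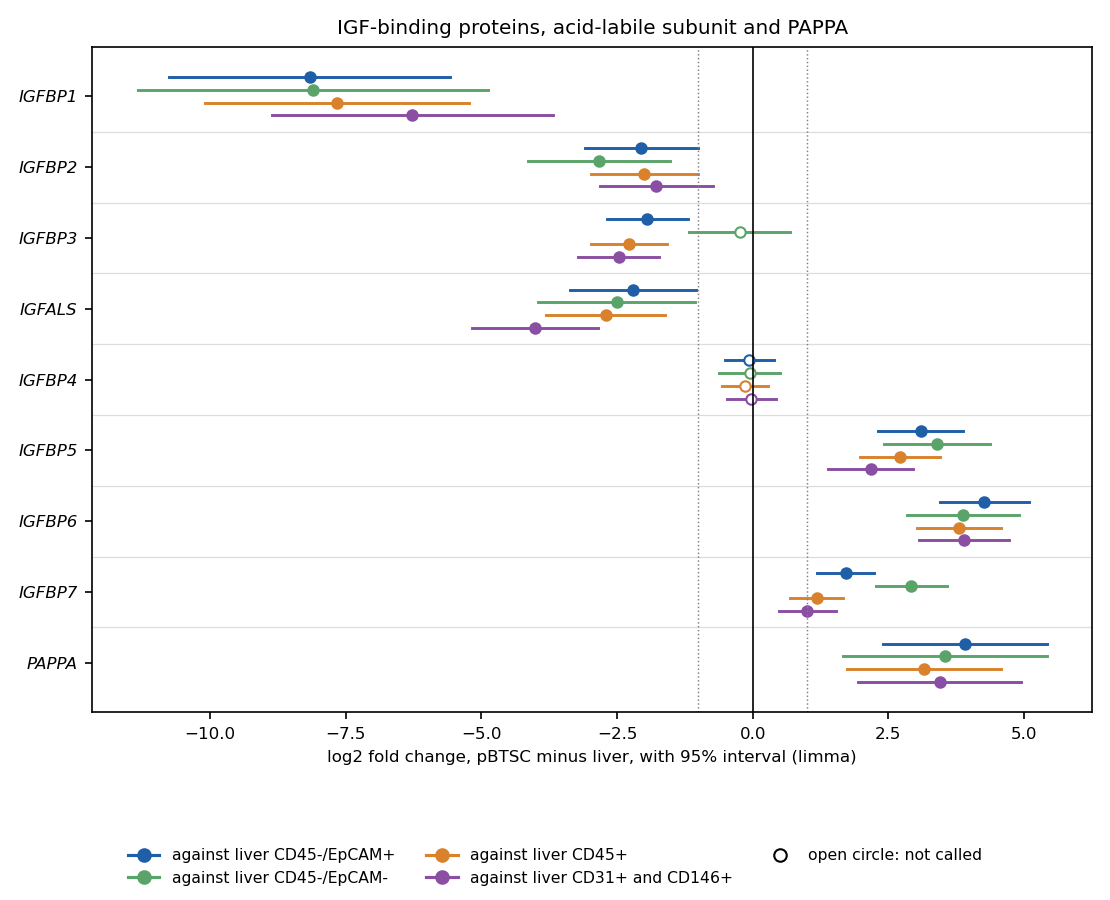
Log2 fold change, pBTSC minus liver, of 7 IGF-binding proteins, the acid-labile subunit IGFALS and the protease PAPPA in 4 comparisons, with 95% intervals from limma and open circles where the test was not passed. IGFBP1, IGFBP2 and IGFALS lie left of 0, IGFBP4 around 0, and IGFBP5, IGFBP6, IGFBP7 and PAPPA right of 0.

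Of 5 proteases and inhibitors with a row, PAPPA, which releases IGF by cutting binding proteins, was higher in pBTSCs in all 4 comparisons. Its level was 83.8, 168, 59.7, 50.2 and 61.3 in S2, S7, S11, S15 and S20 and at most 15 in liver, and the log2 fold change against CD45-/EpCAM+ cells was 3.91 ± 0.71 (limma, adjusted p = 3.5e-04). Within title numbers 15 to 23 PAPPA did not pass against CD45-/EpCAM+, CD45+ or endothelial cells. PAPPA2 (2.08 ± 0.77, adjusted p = 0.0491) and STC2 (1.15 ± 0.41, adjusted p = 0.0422) also passed against the endothelial sorts, calls that were lost under 10 and 5 of 14 other settings and in 18 and 8 of the 20 fits that left out 1 library. The shallow library S22 was at 0 for PAPPA2, under its floor of 156, and without it the values were 0.80 for PAPPA2 (adjusted p = 0.362) and 0.65 for STC2 (adjusted p = 0.276). TRIM71, MEST, PAPPA2 and STC2 were named after their values were seen. Among 6 tested receptors and adaptors, GRB10, an imprinted inhibitor of insulin and IGF receptor signalling, was lower in pBTSCs against CD45-/EpCAM+ (-1.14), CD45-/EpCAM- (-1.39) and CD45+ cells (-1.06). The first call was lost under 3 of 15 other settings and without S9 or S13, the second when libraries were rescaled to the same total, and the last under 4 of 15 and without S12. IGF1R itself was higher against CD45-/EpCAM- cells (1.17 ± 0.28, adjusted p = 0.00265), a call lost without S5, and 4 receptors and adaptors passed in no comparison. In the growth hormone list, 1 of 5 tested genes passed against liver, the receptor GHR, which was lower against the endothelial sorts (-1.92 ± 0.54, adjusted p = 0.0119), a call lost with the title number range as a term.

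Other fetal regulators moved in several directions. Of 5 tested oncofetal regulators, HMGA1 was lower against CD45-/EpCAM- cells (-1.75 ± 0.35, limma, adjusted p = 6.8e-04), and IGF2BP2 (1.18 ± 0.25, adjusted p = 0.00138) and PLAG1 (2.88 ± 0.81, adjusted p = 0.0122) were higher against the endothelial sorts. PLAG1 was at 119, 71.4 and 94.3 in S16, S21 and S17 and at 0 in S22, under its floor of 156, and was higher by 1.23 (adjusted p = 0.0125) without S22 and by 4.52 without S17. TRIM71, an RNA-binding repressor that let-7 targets, was lower against CD45-/EpCAM+ (-2.88 ± 0.76, adjusted p = 0.00616) and CD45+ cells (-2.34 ± 0.72, adjusted p = 0.0176), at low levels that overlapped between groups, the latter call lost without S20. IGF2BP2, the paralog of IGF2BP3 that stays on in adult tissues, was at 1110 to 1963 in pBTSCs and 505 to 1399 in liver. Among 6 tested imprinted growth genes, PEG10 was lower in pBTSCs in all 4 comparisons, from -4.09 ± 0.69 against CD45-/EpCAM- cells (adjusted p = 1.4e-04) to -2.0 ± 0.55 against the endothelial sorts (adjusted p = 0.0104). PLAGL1 was higher against the endothelial sorts (3.97 ± 0.84, adjusted p = 0.00154). Its value was 0 in S22, again under the floor, and 94.8 to 115 in S16, S21 and S17, and without S22 the difference was 2.26 (adjusted p = 8.7e-05). MEST was higher against CD45+ cells (1.05 ± 0.30, adjusted p = 0.0134), a call lost within either range of title numbers and without S11, S12, S15 or S20. Within title numbers 15 to 23 the calls of IGF2BP2, PLAG1 and PLAGL1 were lost, as was that of PLAG1 without S21, and that of PEG10 against the endothelial sorts was lost without the shallow libraries. In the glypican family GPC1 was higher in pBTSCs against CD45-/EpCAM+ (1.5 ± 0.27, adjusted p = 3.0e-04) and CD45-/EpCAM- cells (2.61 ± 0.33, adjusted p = 1.1e-05), opposite in direction to GPC3. The oncofetal protein AFP was at 8066, 1048, 3856, 12087 and 8054 in the pBTSC libraries S2, S7, S11, S15 and S20. Liver libraries were at 65022 to 176993 in numbers 3 to 14 and at 914 to 2034 in 16 to 23. Of the pBTSC libraries S7 alone lay inside either range. AFP passed against CD45-/EpCAM- cells (-4.96 ± 1.95, adjusted p = 0.0426), a call lost under 7 of 14 other settings. The CD45-/EpCAM- libraries all lie in numbers 3 to 14, a boundary proposed with AFP values known. ZHX2, a repressor of AFP, was higher against the same cells (1.25 ± 0.32, adjusted p = 0.00426), a call lost without S5.

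Liver libraries numbered 16 to 23 were next compared with those numbered 3 to 14, allowing for the sort. Only the CD45+ and CD45-/EpCAM+ sorts occur in both ranges, so each difference allowing for the sort comes from their libraries. In 16 to 23 these are S18, S19 and S23. The ranges of values given here cover all liver libraries. The boundary was proposed with AFP values known. AFP, the major plasma protein of the fetal liver, was at 65022 to 176993 in numbers 3 to 14 and at 914 to 2034 in 16 to 23, which is given without a test. Of the 8 members 0 passed in either direction (limma), where 2.12% of all genes were higher in numbers 16 to 23 and 1.37% lower, and 2 members had an unadjusted p under 0.05, as did 24.9% of all genes. Those were IGF1 (2.11 ± 0.63, adjusted p = 0.0624) and DLK1 (3.70 ± 1.14, adjusted p = 0.0702), both with higher values in 16 to 23. DLK1 was at 0 to 96.4 in numbers 3 to 14 and 184 to 523 in 16 to 23, with no overlap. The 0 is that of S13, under its floor of 77.1, and the share of all genes with no overlap was not computed. IGF1 ran from 45.9 to 204 with a median of 144 in numbers 3 to 14, and from 71.3 to 541 with a median of 491 in 16 to 23, where S22 is the lone library below 204. Without the shallow libraries IGF1 (2.18, adjusted p = 0.0218), DLK1 (3.09, adjusted p = 0.0375) and LIN28B (-1.12, adjusted p = 0.0452) passed. With the mean of each run as 1 value 0 members passed. The remaining members gave -2.29 ± 1.11 for IGFBP1, -0.48 ± 0.61 for IGFBP2, 0.68 ± 0.34 for IGFBP3, -0.44 ± 0.23 for IGF2BP3, -0.37 ± 0.44 for GPC3 and -0.92 ± 0.46 for LIN28B. IGFBP1 was at 301 to 538 in all libraries numbered 16 to 23 and at 257 to 9286 in 3 to 14, where S12, S13 and S14 held 372, 257 and 717 and the 5 others 2847 or more.

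**Figure D4:**
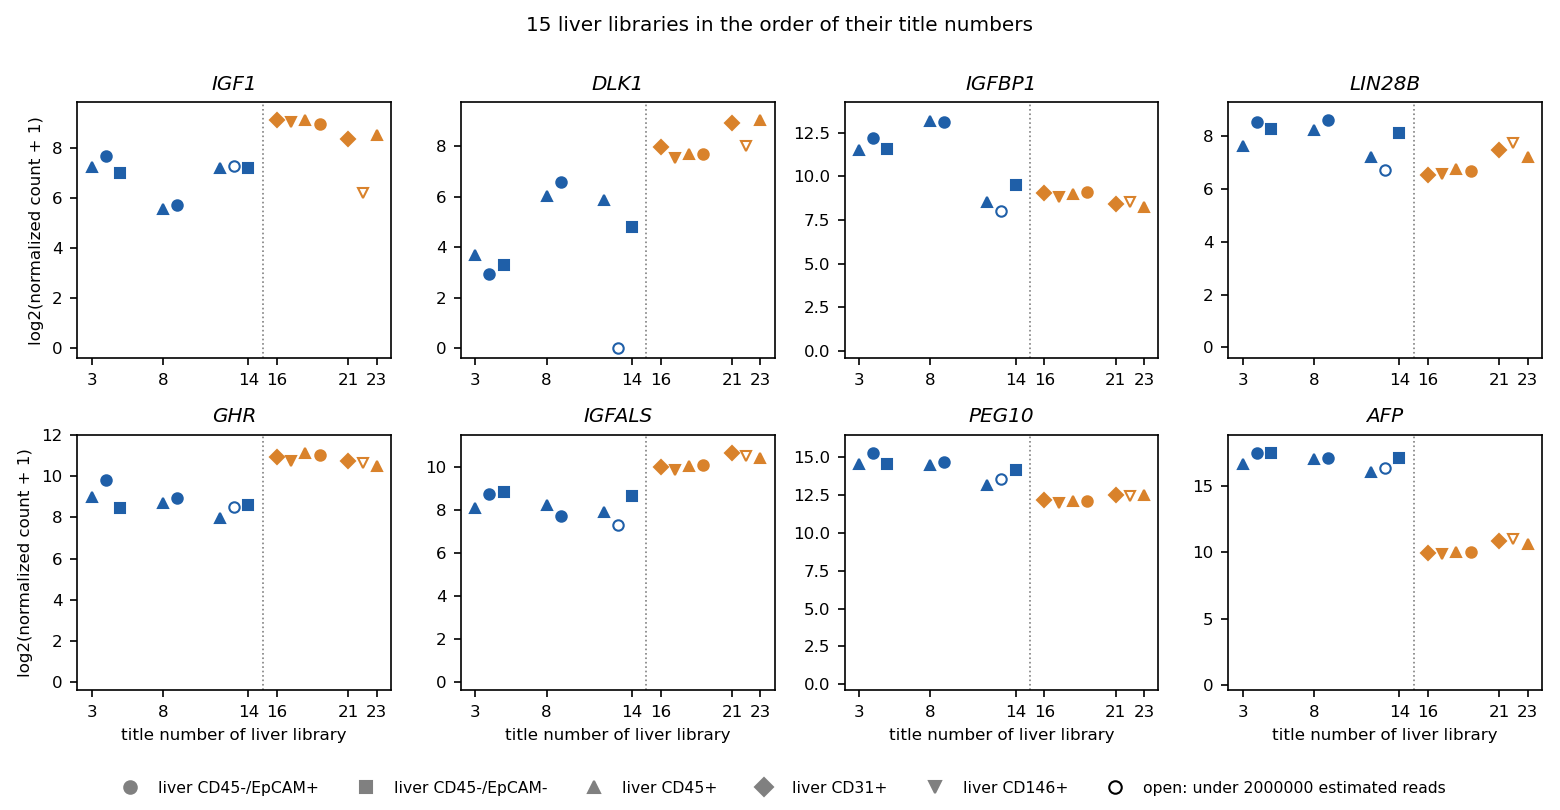
Level of 4 members and 4 related genes in the 15 liver libraries against title number, as log2(normalized count + 1), with marker shape for the sort and open points for libraries under 2000000 estimated reads. The dotted line separates numbers 3 to 14 from 16 to 23. DLK1, GHR, IGFALS, PEG10 and AFP have no overlap across the line, and IGF1, IGFBP1 and LIN28B overlap. The line was proposed with AFP values known. The share of all genes tested with no overlap across it was not computed.

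Beside the members, the growth hormone receptor GHR (2.14 ± 0.29, limma, adjusted p = 0.00199) and IGFALS (2.15 ± 0.29, adjusted p = 0.00199) were higher in numbers 16 to 23. GHR was at 253 to 914 in numbers 3 to 14 and at 1462 to 2232 in 16 to 23. IGFBP5 also rose (1.27 ± 0.24, adjusted p = 0.0119), and PEG10 (-2.0 ± 0.39, adjusted p = 0.0148) and SALL4 (-2.56 ± 0.60, adjusted p = 0.0294), a fetal transcription factor, were lower. With the mean of each run GHR still passed, and IGFALS, IGFBP5, PEG10 and SALL4 did not. The calls of IGFBP5 and PEG10 were also lost without S18 or S19, and that of SALL4 without any 1 of S3, S8, S9, S18, S19 and S23. ZHX2 and ZBTB20, repressors of AFP after birth, did not pass, at 0.62 ± 0.22 (adjusted p = 0.110) and -0.40 ± 0.19 (adjusted p = 0.222). Erythroid markers moved with the same boundary, since the 3 erythroid genes with a row summed to 12069 to 859951 in numbers 3 to 14 and to 1432 to 2550 in 16 to 23, and the summed hepatocyte level was 762297 to 1837660 and 1727480 to 2351830. The 6 stellate cell and fibroblast genes summed to 25166 to 73733 and to 68751 to 147548, with 1 of the 6 higher in numbers 16 to 23. The part of these cells was not tested.

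Between the 5 liver sorts, allowing for the title number range, 0 of the 8 members passed the limma F-test, where 0.0257% of all genes did. Of these IGFBP3 alone had an unadjusted p under 0.05, as did 7.24% of all genes, with an adjusted p of 0.424. The CD31+ and CD146+ sorts exist in numbers 16 to 23 alone and the CD45-/EpCAM- sort in 3 to 14 alone, so that for these sorts the sort and the number range cannot be told apart without the libraries of the other sorts.

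Whether the difference between title number ranges was the same in pBTSCs as in liver was tested as an interaction. Its liver side comes from the CD45+ and CD45-/EpCAM+ sorts, which alone occur in both ranges. Of the members 0 passed (limma), where 1.20% of all genes did, and 2 had an unadjusted p under 0.05, as did 11.9% of all genes. For DLK1 the log2 difference of 15 to 23 from 2 to 14, pBTSC minus liver, was -6.15 ± 1.70 (adjusted p = 0.123). For IGFBP1 it was 5.89 ± 1.67 (adjusted p = 0.137). GHR (-2.05 ± 0.44, adjusted p = 0.0290) and IGFALS (-2.32 ± 0.47, adjusted p = 0.0191) passed. Both were higher in liver numbers 16 to 23, and GHR in the pBTSC libraries S2, S7, S11, S15 and S20 was at 352, 494, 511, 550 and 407. The IGFALS call was lost without the shallow libraries and without S15, S19 or S23, and the GHR call without the shallow libraries and when any 1 of S7, S9, S11, S15, S18, S19 and S20 was left out. AFP gave 8.12, a description with no test, since the boundary was proposed on its values.

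LIN28B, IGF2BP3, IGFBP1, IGFBP2 and GPC3 varied together over the 20 libraries, and IGFBP3 and DLK1 followed them less closely. As a description over 20 libraries, which share tissue and run, Pearson's r of log2(normalized count + 1) was 0.972 for LIN28B with IGF2BP3, 0.952 for IGFBP2 with GPC3 and 0.915 for IGFBP1 with LIN28B. Within the 15 liver libraries the same pairs gave 0.885, 0.967 and 0.777. IGFBP3 gave 0.332 with IGFBP2 and 0.393 with GPC3 over all libraries, and -0.646 and -0.603 in liver. DLK1 gave 0.343 and 0.301 with the same genes, and 0.764 with IGFBP3. IGF1 ran the other way in liver, at -0.756 with LIN28B. Of all genes, those closest to LIN28B were PALM3 (0.984), MTHFD1 (0.982) and AFMID (0.977), and the same 3 led for IGF2BP3 (0.976, 0.977 and 0.975). SULT2A1 (0.972) and AGT (0.964) were among the 3 closest to IGFBP1. ADH5 (0.978), NUDT7 (0.977) and APMAP (0.974) were closest to IGFBP2, and QDPR (0.970), RNF128 (0.968) and NUDT7 (0.967) to GPC3. The highest values were lower for IGFBP3 (ANKRD1, 0.919, PCF11, 0.894, and MPIG6B, 0.890), IGF1 (N4BP2L2, 0.901, FAM126B, 0.894, and RMND5A, 0.893) and DLK1 (STAP2, 0.889, ADCYAP1, 0.886, and ANKFN1, 0.884).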

How the data were processed

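RNA was extracted from 20 sorted pig preparations with RNeasy kits and made into TruSeq stranded libraries with poly(A) selection. The table deposited by the authors gives a normalized signal per gene and library, scaled between libraries and not whole, over 25764 genes, of which 7782 carry no name. The submitters' processing notes name STAR, Salmon and DESeq2. Versions, genome build and annotation are not given in the sources used here. Normalized counts scale each library to the others, so that a gene's value is relative to the rest of its library, and levels were not compared between genes because no length scale was given. Low values came only near whole multiples of 1 step, so counts were not rebuilt and no count model was used. The step gave the estimated reads of each library, and 3 reads its floor.

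Values were taken as log2(normalized count + 1) for the 15576 genes with at least 10 in at least 2 libraries. limma 3.58.1 in R 4.3.3 (moderated with a trend, Benjamini-Hochberg adjustment over all genes tested, adjusted p under 0.05 and absolute log2 fold change over 1) was fitted once to the 6 sorted groups for the 4 pBTSC comparisons, to the 15 liver libraries with sort as a covariate for title numbers 16 to 23 against 3 to 14 and for any difference among sorts, and to all libraries for the interaction of number range and tissue. Fold changes on this scale can understate the change of low genes. A 0 in a shallow library can instead overstate it. Against the endothelial sorts PLAG1 gave 2.88 with S22, where it was at 0, and 1.23 without S22. The fit was also run on simulated counts drawn independently for each library. Those lack the likeness of libraries with neighbouring title numbers, so they cannot vouch for the p-values given here. Values and figures used Python 3.11.15, numpy 2.4.6, pandas 2.3.3 and matplotlib 3.10.9.

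Groups came from the labels. The members and the gene lists were chosen with earlier results of these data known. Of each pathway list, genes were named where they passed and the groups did not overlap, up to 4 by absolute fold change, with AFP, ZHX2 and ZBTB20 always named, and for each member the 3 named genes with the highest correlation, of which 1 is not reported here. Other settings were other pseudocounts, filters, scalings, array weights, moderation without a trend, no fold threshold, fewer groups, title number terms and leaving out each library. The authors' mean over all libraries was not used. No 2 libraries agreed within counting noise.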

Additional observations from a re-analysis of the deposited data

Results flagged for a closer look

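For 31 of the genes described above, 93 groups of 4 or 5 libraries were searched for 1 library far from the others, and 9 had one. Chance alone gives about 1 in 20. IGFBP1 was highest in the CD45+ library S8, at 9286 normalized counts, with the next library at 2847. In the CD45-/EpCAM+ sort, S19 stood above the rest for IGFBP5, at 2190 against 830, and for IGFBP7, at 22020 against 10900, and the shallow library S13 for PLAG1, at 178 against 96.3. GRB10 was highest in the CD45+ library S12, at 4225 against 2299. Among pBTSCs, PAPPA was highest in S7, at 168 against 83.8, as was IGFBP4, at 11088 against 7235. In the shallow library S15 GPC1 was lowest, at 1280 against 1649, and TRIM71 highest, at 12.6 against 2.50, where 12.6 is 1 estimated read.

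The difference between title number ranges differed between pBTSCs and liver, by the interaction in limma, for IGFALS (-2.32 on the log2 scale) and GHR (-2.05). The value of AFP was 8.12, given without a test because the boundary was proposed on its values. The range coincides with the piglet line in pBTSCs, so that line and range cannot be told apart there.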

How the results depend on the processing

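The counts of members that passed between pBTSCs and liver, in either direction, stayed within 1.5 times under every setting run. An equal count does not mean the same members. Leaving out 1 library gave 6 to 7 against CD45-/EpCAM+ cells, 4 to 5 against CD45-/EpCAM- cells, 7 to 7 against CD45+ cells and 6 to 7 against the endothelial sorts. Between title number ranges in liver, where 0 members passed, 1 passed with a pseudocount of 10, 4 with array weights, 3 without the libraries under 2000000 estimated reads, 4 with no covariate and 1 with CD45+ and CD45-/EpCAM+ libraries only. Leaving out 1 library gave 0 to 1 (DLK1 without S9 or S13, IGF1 without S17 or S22). For the interaction, array weights gave 3 and leaving out the shallow libraries 1, and leaving out 1 library gave 0 to 2 (DLK1 without S9, IGFBP1 without S12, both without S13). The cause was not tested.

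Signs turned for DLK1 against CD45-/EpCAM+ cells within title numbers 2 to 14 (0.060), IGFBP3 against CD45-/EpCAM- cells with libraries rescaled to the same total (0.24) or without S14 (0.56), and IGF1 against the endothelial sorts without the shallow libraries (-0.51) or without S22 (-0.21), none of which had passed. Other settings lost IGFBP2 against CD45+ cells within 2 to 14 (-2.12, adjusted p = 0.0592) and against the endothelial sorts without the shallow libraries (-1.53, adjusted p = 0.0614). Array weights called DLK1 (-2.97, adjusted p = 0.0224) and IGF1 (1.78, adjusted p = 0.0316) against CD45-/EpCAM+ cells. Rescaling to the same total moved the median of all genes from 0.08, 0.04, 0.07 and 0.14 to 0.39, 0.51, 0.31 and 0.43 in the 4 pBTSC comparisons.

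Over all genes, 3905 passed against CD45-/EpCAM+ cells, 6029 by adjusted p alone and 1347 within title numbers 15 to 23. Against CD45-/EpCAM- cells 5698 passed and 3397 without S5. Against CD45+ cells 3202 passed, 5261 by adjusted p alone and 1906 within 15 to 23. Between title number ranges 544 genes passed, 2034 with array weights, 1113 without the shallow libraries, 1137 by adjusted p alone, 1883 with no covariate, 111 with the mean of each run, and 132, 90, 274, 291 and 356 without S18, S19, S23, S8 and S9. Between sorts 4 passed, 0 to 41 under other settings and 0 to 1317 with 1 library left out, the highest without S17. For the interaction 187 passed, 1053 with array weights, and 118 and 104 without S18 and S19.

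The comparison with CD45-/EpCAM- cells within 15 to 23 and that with the endothelial sorts within 2 to 14 could not be fitted. The run of title numbers as a term and the mean of each run were chosen after seeing the data. The labels number no replicates and tie no libraries to a shared animal, so no replicate block was fitted. The run of title numbers as a term called 7, 5, 8 and 8 members in the 4 pBTSC comparisons, with IGF1 higher in 3 of them. Depth limits DLK1, LIN28B, IGFBP1 and IGF1 in S13, S15 and S22, where 3 reads are worth 37.7 to 156 normalized counts.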
